A study of Mus musculus with 20 samples.

Results

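Nuclear receptors are transcription factors, and many of them are switched by small fat-soluble ligands such as thyroid hormone, retinoic acid, steroids, oxysterols and fatty acids. They bind DNA alone, as pairs of one receptor, or as heterodimers with a retinoid X receptor, and they recruit coactivators or corepressors that set the activity of nearby genes. In skeletal muscle they are known for setting fibre type, fuel use and the response to hormones and fasting. The set described here held 31 receptors outside the Nr4a subfamily, taken as the probes whose gene name in the scanner files was one of 31 listed symbols. It comprised 53 of the 39429 probes of the array and 31 of its 30175 gene names. Of the 31 receptors, 23 (34 probes) were bright enough to be tested.

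The muscle was the quadriceps of male C57BL/6J offspring aged 6 weeks, taken after 2 h of fasting. Dams had been fed a high-fat diet with 40% of energy from fat (mHFD) or a low-fat diet with 10% (mLFD) from 3 days before mating until the end of lactation, and all offspring ate the low-fat diet once weaned. Each group held 10 mice with 1 array each. The labels do not name litters, and a group could hold up to 4 siblings, in which case p-values may be too small. Each sample was read in Cy5 against a Cy3 pool of all samples, and values are log2 ratios of sample to pool unless brightness is named. Differences are mHFD minus mLFD, with the standard error (SE) of the limma fit.

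The probes that stood well above background in Cy5 numbered 15506 to 23410 on an array. The arrays lay on 5 slides with 2 arrays of each group on every slide. On every slide mHFD arrays were at positions 1 and 3 and mLFD arrays at positions 2 and 4. An effect of odd against even position therefore cannot be told apart from the diet. Position as a covariate was a linear term, which does not separate them. All 10 skeletal muscle markers, among them the fast myosin Myh4 and the muscle actin Acta1, were well above background on all 20 arrays, and their mean log ratio was 0.09 ± 0.16 in mHFD and 0.10 ± 0.28 in mLFD (SD over 10 arrays each). Of 8 adipocyte markers, 7 were tested and all 7 had a lower mean in mHFD, with a median difference of -0.35. Of these, 0 had an unadjusted p under 0.05 in limma. Their mean ranged from -1.01 to 0.29 in mHFD and from -1.01 to 0.92 in mLFD, and Lep was well above background on 0 arrays. Of 4 hepatocyte markers, Serpina1a and Alb were tested and both had a higher mean in mHFD, by 1.29 (limma p = 0.00683, adjusted p = 0.688) and 0.79 (limma p = 0.0111, adjusted p = 0.690). Their mean ranged from -1.70 to 2.00 in mHFD and from -1.84 to 0.17 in mLFD, with the highest values on mHFD 02 and mHFD 08. Fewer cells of a type and less RNA per cell cannot be told apart in such bulk samples.

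The probes on which the results turn are shown by the first 30 of their 60 bases, with their positions in mouse build mm9 as given in the scanner files. The pair for Thra is shown because its probes gave different results, Nr2f2 and Esr1 because they had the smallest p-values, and Pparg because of its relation to the adipocyte markers.
Thra, brighter probe, chr11:98626356-98626415, plus strand: aaatggtagtcatcctaactgcactttgga
Thra, dimmer probe, chr11:98617475-98618281, plus strand: aaagcagcatgtcagggtatatccctagtt
Nr2f2, chr7:77496873-77496932, minus strand: ggcccttttccttgtttgctttgtgttagc
Esr1, chr10:5343056-5343115, minus strand: ttttttgtagacgtttcaaactaccgtgtc
Pparg, chr6:115440213-115440272, plus strand: gcaggaaagtcccacccgctgacaacgtgt
The dimmer Thra probe covers 807 bases of the genome with its 60 bases, so it joins separate exons. In the RefSeq annotation of GRCm38.p6 the gene model of Thra overlaps Nr1d1, that of Nr2f2 overlaps the noncoding gene B130024G19Rik, and Esr1 and Pparg overlap no other gene model.

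The first question was which receptors quadriceps muscle holds. In all, 20 of the 31 receptors were well above background on all 20 arrays with at least 1 probe, and the other tested receptors were Rxra (19 arrays), Nr1h4 (13 arrays) and Nr5a2 (10 arrays). Brightness is given as the mean over 20 arrays of the log2 Cy5 signal minus the 75th percentile of its array, ± SD. It depends on the probe as well as on the RNA, so the order is one of spots and not of RNA amounts.

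The brightest spot belonged to Thra, the thyroid hormone receptor alpha gene, at 3.87 ± 0.31. Close behind were Rxrg at 3.84 ± 0.23 and Rxrb at 3.65 ± 0.13, retinoid X receptors that serve as partners of many other receptors. Next came Nr1h2, the liver X receptor beta that senses oxysterols, at 3.1 ± 0.17, and Nr3c1, the glucocorticoid receptor, at 3.06 ± 0.29. Among all probes of the array these 5 spots lay between the 91.7th percentile, Nr3c1, and the 94.4th, Thra. Thra, Rxrg and Rxrb differed by less than the larger SD from one to the next, and so did Nr1h2 and Nr3c1.

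A middle group of spots followed, made of hormone and retinoid receptors and orphans. Esr2, an oestrogen receptor, stood at 2.57 ± 0.15, Nr2f6, an orphan of the COUP-TF family, at 2.39 ± 0.17, and Rara, a retinoic acid receptor, at 2.18 ± 0.22. Nr1h3, the liver X receptor alpha, stood at 1.84 ± 0.21. Rora, an orphan receptor that drives clock genes, stood at 1.35 ± 0.35, and Rarg, another retinoic acid receptor, at 1.30 ± 0.27. Nr2f2, the COUP-TFII receptor known from vessels and mesenchymal cells, stood at 0.94 ± 0.15. Pparg, the master regulator of adipocyte formation, stood at 0.47 ± 0.29. The gene model of Esr2 overlaps the pseudogene Gm7862, so the source of its signal is uncertain.

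Nr2c2 and Nr2c1, orphan receptors that mostly repress, stood near the 75th percentile of the array at 0.12 ± 0.36 and -0.35 ± 0.38. Thrb, the thyroid hormone receptor beta gene, stood at -0.41 ± 0.27, Esrrb, an orphan related to oestrogen receptors, at -0.51 ± 0.27, and Rarb, a retinoic acid receptor, at -0.59 ± 0.35. Esr1, the oestrogen receptor alpha gene, stood at -0.75 ± 0.28, Nr2f1, the COUP-TFI gene, at -1.32 ± 0.28, and Rxra at -2.14 ± 0.40. Nr1h4, the bile acid receptor, stood at -3.08 ± 0.38 and Nr5a2, the LRH-1 receptor of liver and ovary, at -3.62 ± 0.85. Of the 30 steps between neighbours in the order of 31 receptors, 19 were smaller than the larger SD of the pair, so neighbours in the order often did not differ beyond their spread.

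**Figure D1:**
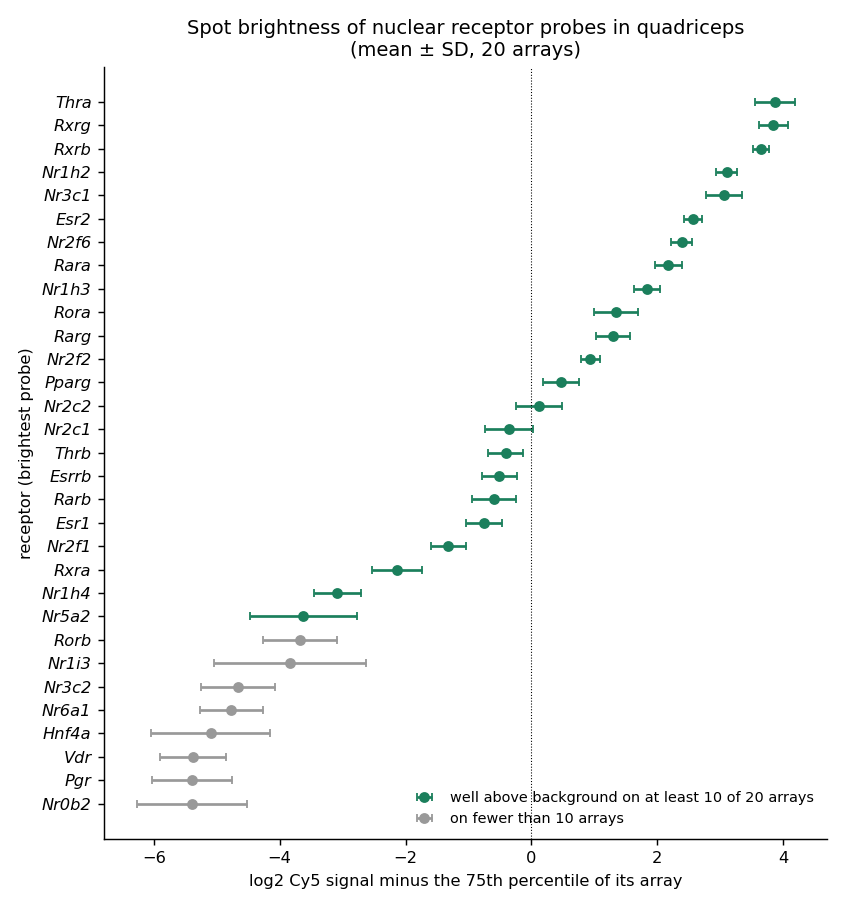
Spot brightness of the 31 receptors (vertical axis, brightest probe of each), as log2 Cy5 signal minus the 75th percentile of its array (horizontal axis); points are means and bars the SD over 20 arrays. Green receptors were well above background on at least 10 arrays and grey ones on fewer: Thra is at the top with 3.87, and the 8 grey receptors end the order.

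The 8 receptors that were too dim to test include several known from liver, kidney and reproductive tissue. Rorb, an orphan of the nervous system, was well above background on 9 arrays with its brightest probe. Nr1i3, the xenobiotic receptor CAR of liver, was so on 3 arrays, and Nr3c2, the mineralocorticoid receptor of kidney, on 3 arrays. Hnf4a, the hepatocyte nuclear factor, and Vdr, the vitamin D receptor, were so on 1 array each. Nr6a1, the germ cell nuclear factor, Nr0b2, the corepressor SHP of liver, and Pgr, the progesterone receptor, were so on 0 arrays. The single array on which Hnf4a and Vdr were well above background was mHFD 02 for both, which was also 1 of the 3 arrays for Nr1i3 and for Nr3c2. That array had the most probes well above background, 23410, and the highest hepatocyte marker mean, 2.00.

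The main comparison asked whether a high-fat diet of the dam changed receptor mRNA in the muscle of the offspring. No receptor passed the threshold: 0 of 34 tested receptor probes reached an adjusted p of 0.05 (limma, Benjamini-Hochberg adjustment over 19206 probes, two-sided), and the smallest adjusted p was 0.679. On the whole array 1 probe did, 0.00521% of those tested. At an unadjusted p under 0.05 there were 2 receptor probes, Nr2f2 and Esr1, both higher in mHFD, which is 2 of 34 against 1371 of 19206 probes (7.14%) on the whole array. Over the array 4.03% of probes were higher and 3.11% lower at that threshold, so the receptors' count lay near the background. That split, 774 against 597 probes, became 518 against 594 with the Agilent log ratio and 604 against 793 with the Cy5 signal alone.

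Of the 23 tested receptors, 14 had a higher and 9 a lower mean in mHFD, with a median difference of 0.02 against 0.003 over all tested probes. The signs of 8 of the 23 turned under at least 1 other normalization, and with log ratios scaled between arrays the split was 11 against 12. The median size of the difference was 0.07, against 0.05 over all tested probes. For 22 of the 23 receptors the 95% interval of the brightest probe in the main fit excluded a 1.5-fold change in either direction. Thra was the exception. These intervals hold for that normalization, and differences of dim probes moved under others. Nr5a2 went from 0.01 to -0.26 and Nr1h4 from -0.01 to 0.19 with the Agilent log ratio. Rxra went from -0.01 to 0.21 with the Cy5 signal alone. For such probes the intervals do not bound the change in RNA. The median SE of a difference was 0.068.

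**Figure D2:**
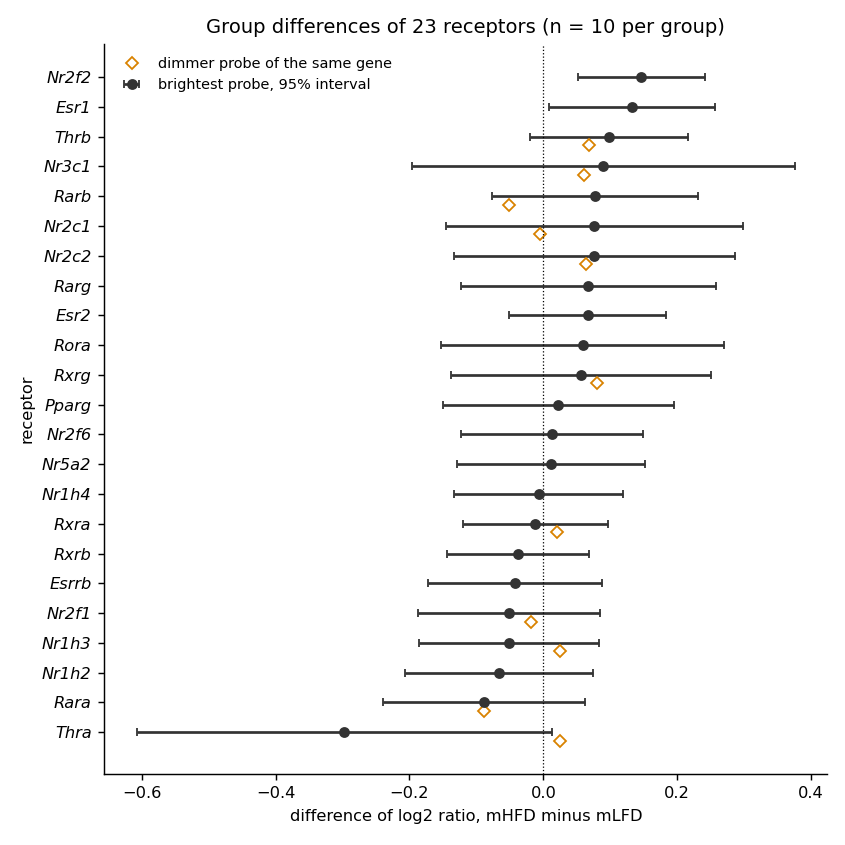
Difference of the mean log2 ratio, mHFD minus mLFD (horizontal axis), for the 23 tested receptors (vertical axis), with 95% intervals of the limma fit, n = 10 arrays per group; filled points are the brightest probe and open diamonds the dimmer tested probe of the same gene. Nr2f2 at 0.15 and Esr1 at 0.13 are the intervals clear of 0, and the Thra probes lie at -0.30 and 0.02.

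Nr2f2 had the smallest p among the tested receptors. Its log ratio ran from 0.06 through a median of 0.18 to 0.29 in mHFD and from -0.13 through 0.01 to 0.20 in mLFD. All 10 mHFD arrays lay above the mLFD mean and 5 of them above every mLFD array, while the lower mHFD arrays overlapped with the mLFD range. The means were 0.17 ± 0.08 (SD, n = 10) and 0.02 ± 0.11 (SD, n = 10). The difference was 0.15 with an SE of 0.046, a 1.11-fold higher level with a 95% interval of 1.04 to 1.18 (limma p = 0.00426, adjusted p = 0.679). A two-sided permutation test with 100000 resamples gave p = 0.00334. On the 5 slides the differences were 0.13, 0.16, 0.08, 0.19 and 0.17. Such a pattern was not particular to Nr2f2. The brighter probe of Rorb, too dim to test, also had all 10 mHFD arrays above the mLFD mean and was higher on all 5 slides. Its means were 0.08 ± 0.07 in mHFD and -0.03 ± 0.08 in mLFD (SD). The dimmer Rorb probe had 0.10 in mHFD and 0.11 in mLFD.

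Nr2f2 was higher in mHFD on all 5 slides, as were the means of Esr1, and the brighter Thra probe was lower on all 5. These were 3 of 23 receptors with 1 sign on all slides, against 12.5% of the probes of the whole array. The groups held the same positions on every slide, so a shared sign over slides does not set diet apart from position. Within groups Nr2f2 was steady, with an SD of 0.09, at the 11th percentile of all tested probes. Leaving out each array in turn left its difference between 0.13 and 0.17 and the unadjusted p between 0.00135 and 0.0100. With other normalizations its unadjusted p was over 0.05 in 4 of 5 cases, the exception being scaling between arrays (limma p = 0.0186). The difference was 0.13 with median centring (limma p = 0.443), 0.10 with the Cy5 signal alone (limma p = 0.199, adjusted p = 0.771), 0.13 in the deposited table (limma p = 0.0681) and 0.10 with the Agilent log ratio (limma p = 0.0666).

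Esr1, the receptor through which oestrogen acts on muscle metabolism, was measured by 1 probe with 10 spots per array. Its log ratio ran from -0.23 through 0.01 to 0.31 in mHFD and from -0.36 through -0.13 to 0.04 in mLFD. In mHFD 9 of 10 arrays lay above the mLFD mean and 3 above every mLFD array, so the ranges overlapped. The difference was 0.13 with an SE of 0.060, or 1.10-fold with a 95% interval of 1.01 to 1.19 (limma p = 0.0369, adjusted p = 0.690), and the two-sided permutation p was 0.0359. The highest array was mHFD 02 at 0.31, which also had the highest hepatocyte marker mean. Without that array the difference was 0.10 (limma p = 0.0822), and with the hepatocyte marker mean as a covariate it was 0.06 (limma p = 0.345, adjusted p = 0.969). It was 0.12 with median centring (limma p = 0.402), 0.23 with the Agilent log ratio (limma p = 0.0573) and 0.30 with the Cy5 signal alone (limma p = 0.0129). The other probes of Esr1, 3 in all, were well above background on 9 arrays or fewer. Their means lay closer together: -0.03 in mHFD and -0.06 in mLFD, 0.01 and 0.02, and -0.03 and -0.04.

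Neither thyroid hormone receptor passed adjustment, and the probes of Thra gave unlike values. The brighter Thra probe ran from -1.06 through -0.59 to -0.08 in mHFD and from -0.99 through -0.27 to 0.36 in mLFD. Most mHFD arrays were low, with 8 of 10 below the mLFD mean, but mLFD 03 and mLFD 08 were among the 4 lowest arrays. The difference was -0.30 with an SE of 0.15 (limma p = 0.0593, adjusted p = 0.690), and the two-sided permutation p was 0.0897. The dimmer probe ran from -0.37 to 0.27 in mHFD and from -0.35 to 0.09 in mLFD, with a difference of 0.02 and an SE of 0.070 (limma p = 0.726, adjusted p = 0.943). Over 20 arrays, with group means subtracted, the probes of this gene had r = 0.46 and rho = 0.53 (two-sided permutation p = 0.0436, adjusted p = 0.0799 over 11 such pairs of probes), and r = -0.02 with slide means subtracted too.

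The gene makes more than 1 product by splicing at its end, and which of them each probe reads was not examined here. Thrb ran from -0.27 through -0.02 to 0.26 in mHFD and from -0.23 through -0.12 to 0.02 in mLFD. The 4 highest mHFD arrays lay above every mLFD array, and the rest lay within the mLFD range or below it. The difference was 0.10 with an SE of 0.057 (limma p = 0.0986, adjusted p = 0.712), and 0.07 for its dimmer probe (limma p = 0.165, adjusted p = 0.746).

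Among the retinoic acid receptors, Rara had a lower mean in mHFD with both of its probes. The brighter ran from -0.50 through -0.01 to 0.03 in mHFD and from -0.23 through 0.02 to 0.25 in mLFD. The difference was -0.09 with an SE of 0.073 (limma p = 0.237, adjusted p = 0.783), and -0.09 with an SE of 0.050 for the dimmer probe (limma p = 0.0907, adjusted p = 0.712). The ranges of the groups overlapped for both probes. Rarg differed by 0.07 (SE 0.092). Rarb differed by 0.08 (SE 0.074, over 19 arrays because 1 spot was an outlier) and by -0.05 (SE 0.060) with its dimmer probe.

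**Figure D3:**
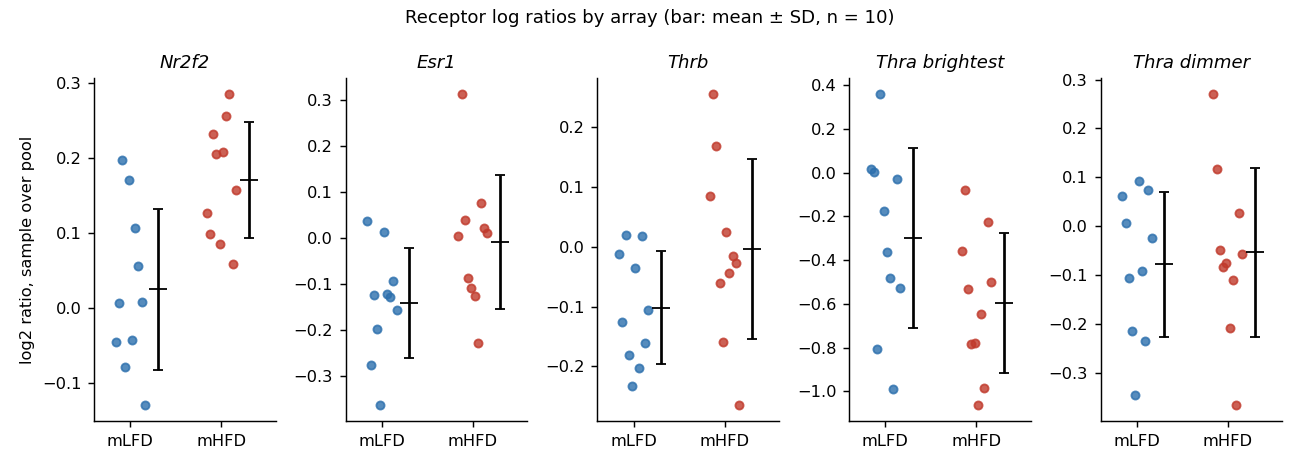
Log2 ratio of sample to pool (vertical axes, whose ranges differ) on each array of the mLFD and mHFD groups for Nr2f2, Esr1, Thrb and both Thra probes; points are arrays, and bars the mean ± SD of 10. Nr2f2 in mHFD lies between 0.06 and 0.29, and the spread of the brighter Thra probe reaches from -1.06 to 0.36.

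The retinoid X receptors, which pair with most ligand-activated members, differed little: Rxrg by 0.06 (SE 0.094), Rxrb by -0.04 (SE 0.051) and Rxra by -0.01 (SE 0.052). The signs of Rxrb and Rxra turned with the Cy5 signal alone. The dimmer probes gave 0.08 for Rxrg (SE 0.19) and 0.02 for Rxra (SE 0.051).

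The lipid and bile acid sensors had no unadjusted p under 0.05 in limma. Nr1h2 differed by -0.07 (SE 0.068), Nr1h3 by -0.05 (SE 0.065) with its brighter and 0.02 (SE 0.069) with its dimmer probe, and Nr1h4 by -0.01 (SE 0.061). The signs of Nr1h2 and Nr1h4 turned with the Cy5 signal alone. Pparg differed by 0.02 with an SE of 0.083 (limma p = 0.792, adjusted p = 0.959). It ran from -0.20 through -0.03 to 0.24 in mHFD and from -0.38 through -0.02 to 0.38 in mLFD. The medians were alike, and both extremes were mLFD arrays.

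Of the steroid receptors other than Esr1, Nr3c1 differed by 0.09 (SE 0.14) with its brighter and 0.06 (SE 0.080) with its dimmer probe, and Esr2 by 0.07 (SE 0.057). For the orphans, the differences were 0.08 for Nr2c2 (SE 0.10), 0.08 for Nr2c1 (SE 0.11), 0.06 for Rora (SE 0.10), 0.01 for Nr2f6 (SE 0.066), 0.01 for Nr5a2 (SE 0.068), -0.05 for Nr2f1 (SE 0.066) and -0.04 for Esrrb (SE 0.063). No receptor of this paragraph had an unadjusted p under 0.05 in limma, and the differences of Nr2f6, Nr2c1 and Nr5a2 turned sign under other normalizations. The dimmer probes gave 0.06 for Nr2c2, -0.0050 for Nr2c1 and -0.02 for Nr2f1.

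The brightest probes of the receptors differed in how much they varied among arrays of one group. The brighter Thra probe had a within-group SD of 0.37, at the 97.8th percentile of all tested probes, and Nr3c1 had 0.34, at the 96.8th, against a median SD of 0.137 over all tested probes. At the other end, Rxrb had 0.11 and Nr2f2 had 0.09. The spread differed between probes of the same gene. The dimmer probes had an SD of 0.16 for Thra, 0.19 for Nr3c1 and 0.47 for Rxrg, whose brightest probe had 0.23. The upper quartile over all tested probes was 0.185. Among all 253 pairs of the 23 receptors, correlated over 20 arrays with group means subtracted, 0 passed Benjamini-Hochberg adjustment over the pairs and 35 had an unadjusted permutation p under 0.05. The share among pairs of other probes was not computed, so the 35 cannot be read as a trait of the receptors. Thra and Nr3c1 had the highest r, 0.74 (Spearman's rho 0.72, permutation p = 0.00041, adjusted p = 0.0696), and 0.75 without the 2 arrays of most extreme Thra values. It was 0.61 with slide means subtracted, and a slide of 4 arrays is too small for an r of its own. Nr3c1 and Esr2 had the lowest, -0.71 (rho -0.71, permutation p = 0.00109, adjusted p = 0.0860), and -0.31 with slide means subtracted.

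In 11 receptors more than 1 probe was tested, and their brighter and dimmer probes could be set against each other. Differences between groups had the same sign for 6 of the 11. Over arrays, with group means subtracted, r ranged from -0.15 for Rxra and -0.10 for Nr2c1 to 0.69 for Nr1h3 and 0.71 for Nr2c2, with a median of 0.46. The permutation p passed Benjamini-Hochberg adjustment over the 11 for Nr2c2, Nr1h3, Nr2f1, Rara and Rxrg.

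The tissue can hold fat cells, and Pparg is a gene of adipocytes, so each of the 23 receptors was correlated with the mean of the 7 adipocyte markers over 20 arrays with group means subtracted. Pparg was higher on arrays with higher markers, with r = 0.86 and rho = 0.80 (two-sided permutation p = 2e-05 for r and 0.00011 for rho, adjusted p = 0.00046 and 0.00253 over the 23 correlations). The highest Pparg values, 0.38 and 0.33, were on mLFD 01 and mLFD 04, which also had the highest marker means, 0.92 and 0.79. Without these arrays, the farthest from the median, r was 0.79, and with slide means subtracted it was 0.84. Within groups it was 0.79 in mHFD and 0.90 in mLFD. With the marker mean as a covariate the group difference of Pparg was 0.13 (limma p = 0.0174, adjusted p = 0.819), where it had been 0.02 without.

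The brighter Thra probe was the other receptor value that passed, with r = 0.70 and rho = 0.69 (two-sided permutation p = 0.00125 for r and 0.00161 for rho, adjusted p = 0.0144 and 0.0185). It was 0.62 without mLFD 01 and mLFD 04, and 0.64 with slide means subtracted. The dimmer Thra probe had r = 0.11 with the same markers. With the marker mean as a covariate the difference of the brighter probe was -0.13 (limma p = 0.285, adjusted p = 0.885), where it had been -0.30. With Nr1d1, whose gene model overlaps Thra, r was -0.01 for the brighter and 0.03 for the dimmer probe. The other 21 receptors had r between -0.43 for Nr2f2 and 0.52 for Nr3c1, and none of these 21 passed adjustment. The share of all probes of the array with such an r was not computed. The part of fat cells in these values was not tested.

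**Figure D4:**
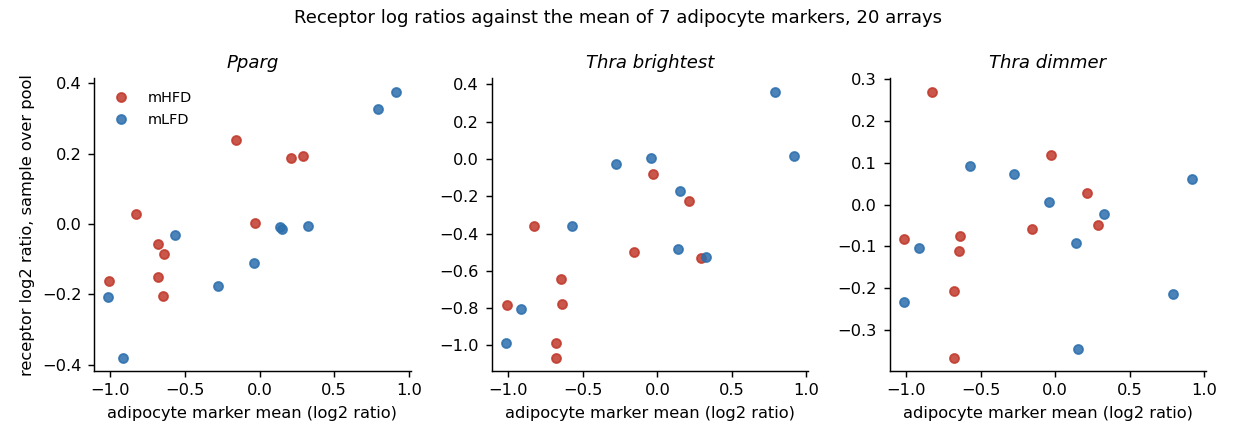
Log2 ratio of Pparg, the brighter and the dimmer Thra probe (vertical axes) against the mean log2 ratio of 7 adipocyte markers (horizontal axis) on 20 arrays; each point is an array, coloured by group. Pparg is higher where the markers are higher (r = 0.86 with group means subtracted), the brighter Thra probe has r = 0.70, and the dimmer probe r = 0.11.

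Receptors act through coregulators, so 30 of those were listed, of which 29 were tested. In mHFD 21 had a higher and 8 a lower mean, with a median difference of 0.06, and 4 had an unadjusted p under 0.05, all 4 higher, with 0 past adjustment. Over all tested probes 9908 of 19206 had a higher mean, the median was 0.003, and 7.14% had such a p, with 4.03% higher and 3.11% lower in mHFD. The split stayed between 20 against 9 and 22 against 7 under the other normalizations. Nrip1, a corepressor of oxidative genes, differed by 0.23 (SE 0.073, limma p = 0.0054, adjusted p = 0.679), with 9 of 10 mHFD arrays above the mLFD mean. Nsd1, a histone methyltransferase that binds receptors, differed by 0.15 (SE 0.053, limma p = 0.0103, adjusted p = 0.690). Ppargc1a, the coactivator PGC-1 alpha of mitochondrial genes, differed by 0.34 (SE 0.13, limma p = 0.0140, adjusted p = 0.690). Over the other settings of processing and fit the highest limma p was 0.226 for Nrip1, 0.520 for Nsd1 and 0.158 for Ppargc1a. With 1 array left out it was 0.0124, 0.0221 and 0.0274.

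Of 33 genes that make, break down, carry or import ligands, 21 were tested, 7 with a higher and 14 with a lower mean, a median difference of -0.02, and 0 with an unadjusted p under 0.05 in limma. Among those of smallest p were the fatty acid carrier Fabp5 at -0.31 (SE 0.20) and Hsd11b1, which regenerates active glucocorticoid in cells, at -0.09 (SE 0.081). Fabp5 is also made by fat cells, whose markers had lower means in mHFD as given above, and their part in its value was not tested. Among 14 other nuclear receptors that are not among the 31, 9 were tested. The oestrogen-related receptor Esrra, which works with PGC-1 alpha, differed by 0.17 (SE 0.080, limma p = 0.0498, adjusted p = 0.690). Its highest limma p was 0.579 over the other settings and 0.106 with 1 array left out.

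Genes known to respond to receptors were set beside the receptors that act on them. All 13 glucocorticoid-responsive genes were tested, and 12 had a higher mean in mHFD, as many as under each of the 5 other normalizations, with a median difference of 0.16 against 0.003 over all tested probes. Of these, 3 had an unadjusted p under 0.05, all 3 higher, and 0 passed adjustment. Over all tested probes 9908 of 19206 had a higher mean and 4.03% were higher with such a p. Pdk4, which restrains glucose oxidation, differed by 0.47 (SE 0.20, limma p = 0.0304), Zbtb16, a transcription factor, by 0.25 (SE 0.11, limma p = 0.0353), and Tsc22d3, the mediator GILZ, by 0.30 (SE 0.13, limma p = 0.0371), each with an adjusted p of 0.690. Over the other settings of processing and fit their highest limma p was 0.304 for Pdk4, 0.357 for Zbtb16 and 0.386 for Tsc22d3. With 1 array left out it was 0.0682, 0.0787 and 0.0812. The receptor itself, Nr3c1, differed by 0.09, with an interval from -0.20 to 0.38. All normalizations used the same arrays, and the part of the receptor in these values was not tested. This list, like the others, was chosen with earlier results of these data known.

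Of 11 thyroid hormone-responsive genes 10 were tested, 7 with a higher and 3 with a lower mean. The split was 4 against 6 with the Agilent log ratio and in the deposited table. The list does not separate genes that the hormone raises from genes that it lowers, so the split shows no direction of response. Ucp3, a mitochondrial carrier, differed by 0.24 (SE 0.10, limma p = 0.0235, adjusted p = 0.690), the slow myosin Myh7 by -0.43 (SE 0.22, limma p = 0.0695) and the slow calcium pump Atp2a2 by -0.18 (SE 0.10, limma p = 0.103). For Ucp3 the highest limma p was 0.256 over the other settings and 0.0528 with 1 array left out. All 8 genes responsive to liver X receptors were tested, 6 with a lower mean and 0 with an unadjusted p under 0.05 in limma. They were led by Mylip, which degrades the LDL receptor, at -0.12 (SE 0.085), the lipogenic factor Srebf1 at -0.07 (SE 0.057) and the desaturase Scd2 at -0.24 (SE 0.21).

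Of 7 retinoic acid-responsive genes, 6 were tested, 4 with a higher and 2 with a lower mean and 0 with an unadjusted p under 0.05 in limma. The split was 2 against 4 with the Cy5 signal alone and 3 against 3 with median centring and in the deposited table. Among those of smallest p were Rarb, given above, and the transglutaminase Tgm2 at 0.08 (SE 0.080), whose sign turned with the Cy5 signal alone. Of 5 genes responsive to oestrogen or vitamin D, Greb1 at 0.02 (SE 0.054) and Igfbp4 at -0.0045 (SE 0.053) were bright enough to be tested. Over all these lists 9 of 92 different tested genes (9.78%) had an unadjusted p under 0.05, against 7.14% of the probes of the whole array, and 0 passed adjustment.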

How the data were processed

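RNA of 20 quadriceps samples (10 mHFD, 10 mLFD; 200 ng each) was put on Agilent 2-colour arrays with Cy5 for the sample and Cy3 for an equimolar pool of the samples, and no dye swap, per the labels. The scanner software was Agilent Feature Extraction 10.7.3.1, per the submitters' processing notes, and the probe positions are those of mm9, per the file headers. The deposited scanner files give the intensity of each spot and of its background, flags, and a log10 ratio after the authors' own background subtraction and dye correction. A second deposited table by the authors holds log2 values, each column with a median of 7.54. After centring each gene, its columns matched log2 Cy5 corrected by Cy3 from the scanner files with a lowest r of 0.994, and it served as an alternative. How it was background-corrected and scaled is not given in the sources used here.

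Mean intensities were corrected with normexp (offset 50) and normalized by loess within arrays. The 1377 control spots and outlier spots were left out, and repeated spots of 1 probe were averaged. A total of 19206 of 39429 probes had a Cy5 signal well above background on 10 arrays or more and were tested with limma 3.58.1 in R 4.3.3 (two-sided, Benjamini-Hochberg, threshold 0.05). They hold 15303 gene names, and 27234 probes were named through RefSeq. The brightest probe stood for its gene. Correlations used group-centred values and 100000 permutations. Precision is limited by the number of arrays. Tested on simulated data for 19206 probes, the fit found 66% of 100 probes shifted by 0.3 and 91% of 100 shifted by 0.6 (log2), with 8 false calls. Only 1 real probe passed, so these shares do not carry over.

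Values by group were given for the receptors with an unadjusted p under 0.05 and for the 5 receptors of smallest p, and of each other list the 3 tested genes of smallest p were named, apart from some that are not reported here. The receptors and lists were chosen with earlier results of these data known. Replicate numbers were not taken to pair the samples, because 2 of 10 same-numbered pairs had a correlation at or under 0.1. The other pairs ran from 0.15 to 0.36, while the mean correlation with other numbers lay between -0.036 and -0.0012. Same-numbered arrays were also neighbours on a slide. The main fit does not account for the dependence seen between them, and a fit with the replicate number is given below. Alternatives covered background correction, normalization, the Cy5 signal alone, the deposited table, outlier spots, slide, position, replicate number, the filter on dim probes, each array left out and the gene's probe. Fits with the adipocyte or hepatocyte marker mean were added after the data were seen. Sequences of probes come from the scanner files, and gene overlaps from RefSeq GRCm38.p6. Exon and UTR positions on mm9 were not used here.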

Additional observations from a re-analysis of the deposited data

Results flagged for a closer look

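In groups of 10 arrays, a single array stood apart from the others of its group in 5 of 88 combinations of gene and group. Receptors made up 46 of the 88 combinations and 4 of the 5. The criterion was the gap to the nearest array over the range of the group (Dixon, 95% level), which chance meets in about 1 in 20 groups, or 4.4 of 88. Rarg on mHFD 06 was at 0.40 with the next array at 0.12, a gap of 0.476 of the range. Nr2c1 on mHFD 08 was at 0.66 against 0.20, a gap of 0.519. Nr5a2 on the same array was at 0.35 against 0.03, a gap of 0.532, and that array had the next to highest hepatocyte marker mean, whose part was not tested. Rxra on mLFD 04 was at -0.36 against -0.06, a gap of 0.563. Greb1 on mHFD 04 was at 0.39 against 0.10, a gap of 0.606.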

How the results depend on the processing

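No receptor and no gene of the other lists passed adjustment in any fit run. The smallest adjusted p of a receptor was 0.355, in the fit with the replicate number. The replicate numbers were not taken as pairs. In that fit 1139 probes of the array were higher and 851 lower at an unadjusted p under 0.05, against 774 and 597 without it. With the replicate block 2 probes of the whole array were called, where 1 was called without it and 0 with the Agilent log ratio, median centring, scaling between arrays, Cy5 alone, the deposited table, slide as a fixed block, position, or the adipocyte or hepatocyte marker mean. Of 10 samples, 3 correlated best with their own number. Probes of the array with unadjusted p under 0.05 numbered 96 with median centring, 546 in the deposited table (of 17362 tested), 2368 without the filter and 896 with the hepatocyte mean. Receptor probes under 0.05 numbered 1 with the Agilent log ratio, the deposited table or the hepatocyte mean, 0 with median centring and 4 with position. Genes of the other lists numbered 0 with median centring, 3 in the deposited table and 5 with the hepatocyte mean.

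The following differences turned sign. With the adipocyte mean, Rxrg was -0.00044 and Igfbp4 0.020. With Cy5 alone, Rxrb was 0.076, Nr1h2 0.021, Nr2f6 -0.11, Rxra 0.21, Nr1h4 0.11, Nr5a2 -0.24 and Tgm2 -0.017. The Cy3 signal of the pool also differed between the arrays of the groups for some of these probes. In Cy3, mHFD minus mLFD was 0.090 for Rxrb (limma p = 0.0370), 0.095 for Nr1h2 (limma p = 0.0497) and -0.064 for Nr2f6 (limma p = 0.0312). It was 0.14 for Rxra (limma p = 0.104), -0.074 for Nr1h4 (limma p = 0.496) and 0.030 for Nr5a2 (limma p = 0.624). With the Agilent log ratio, Nr2f6 was -0.042, Nr2c1 -0.0057, Rxra 0.069, Nr1h4 0.19 and Nr5a2 -0.26. With scaling between arrays, Nr2f6 was -0.0020, Rarg -0.00096 and Nr2c1 -0.024. In the deposited table, Nr2f6 was -0.021, Rxra 0.020 and Igfbp4 0.042. With position, Rora was -0.048, Nr2c2 -0.075, Nr1h4 0.079 and Scd2 0.028. With the hepatocyte mean, Nr2c1 was -0.063, Esrrb 0.021, Rxra 0.014, Nr1h4 0.0033, Nr5a2 -0.061 and Igfbp4 0.030. With median centring, Nr1h4 was 0.019 and Igfbp4 0.011. With a gene's probes averaged, Rarb was -0.0025 and Rxra 0.0040. The cause was not tested.

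With each array left out in turn, differences ranged from -0.0053 to 0.10 for Rxrg, -0.018 to 0.043 for Nr2f6, -0.017 to 0.067 for Pparg, -0.051 to 0.0086 for Rxra, -0.027 to 0.022 for Nr1h4, -0.035 to 0.031 for Nr5a2, -0.017 to 0.037 for Greb1 and -0.026 to 0.016 for Igfbp4. Probes called ranged from 0 to 1, receptor probes under 0.05 from 1 to 3, and genes of the other lists from 4 to 12. Nr1h4 and Nr5a2 were well above background on 13 and 10 arrays, which limits their values.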

Other observations

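Several receptors were offset from the pool on every array. Nr3c1 lay below it on all 20 arrays, from -1.37 to -0.25, Rxrb from -0.44 to -0.03, and Esr2 above it, from 0.03 to 0.52. The pool holds the same samples in the other dye and dyes were not swapped, so these offsets say nothing of RNA amounts, and group differences do not contain them. The receptor half-site AGGTCA, or TGACCT on the other strand, occurred in 10 of 47 windows (21.3%) of 300 bases around the transcription starts of 29 of the 31 receptors in RefSeq GRCm38.p6. Over all genes it occurred in 16.3% of 32851 such windows. These are matches of letters and were not tested as binding sites.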
